A study of Gallus gallus with 20 samples.

Results

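The age change examined here was that of the liver in libraries labelled Ogye, between 5 and 10 weeks of age. Its members were the 5 libraries of 10-week Ogye chickens and the 5 libraries of 5-week Ogye chickens, 10 of the 20 libraries of the series, chosen by their labels for breed and age. The Ogye is a Korean native breed with black skin, bones and organs, and the Cornish, which makes up the remaining 10 libraries at the same ages, is a heavy meat-type breed. The study compared these livers to follow how the breeds come to differ in body weight. RNA of whole liver was read after ribosomal and globin RNA had been depleted with a kit that marks strand, and no treatment is named for any group. Sex, feeding state and the hour of sampling are not among the labels. HINTW, a gene of the female-specific W chromosome, had 0 counts in replicate 3 of Ogye at 5 weeks and 29 to 392 in the other libraries. Nor do they say that each library is a bird of its own, so the p-values measure the spread between these libraries, which may be technical.

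The liver of a growing chicken answers growth hormone by making insulin-like growth factor, produces most of the fat that the bird deposits, and disposes of nitrogen as uric acid. It also secretes the clotting and acute phase proteins of the plasma. Between feeding and fasting it switches from fat synthesis to fatty acid oxidation and glucose production.

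Of 13956 entries named by a gene symbol, 10697 passed the filter on low counts with all 20 libraries. Levels are given as CPM, the counts of a library scaled to a common total of named genes by TMM, for replicates 1 to 5 in that order, and they are not corrected for gene length, so they compare libraries and not genes. Fold changes are 10 minus 5 weeks on the log2 scale with their standard error, and a gene was called where its Benjamini-Hochberg adjusted p in edgeR's quasi-likelihood test was under 0.05. Total counts were 21814209 to 30150519 per library at 5 weeks and 15281000 to 19822433 at 10 weeks, so the older group was the more shallowly sequenced.

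Replicates 3, 4 and 5 at 5 weeks stood apart from the others by a trend with gene length, taken as the span of the gene on the chromosome in RefSeq GRCg7b. Across 10353 genes the level relative to the median library had a Spearman correlation with span of -0.60, -0.61 and -0.60 in these 3 libraries. The same value was 0.08 and -0.03 in replicates 1 and 2 at 5 weeks and 0.12 to 0.36 at 10 weeks. Among 10 bins of span, the 3 libraries lay 0.90 to 1.13 log2 units above the median library in the bin of the shortest genes and 0.77 to 0.79 below it in that of the longest. Results below therefore draw on a fit with all 20 libraries and on a fit of 17 that leaves out these 3, in that order where a pair of values is given, and a gene called in both fits with the same sign is named as such. The fit of 17 keeps 2 libraries at 5 weeks. Another fit kept all libraries and removed the smooth trend with span from each.

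**Figure D1:**
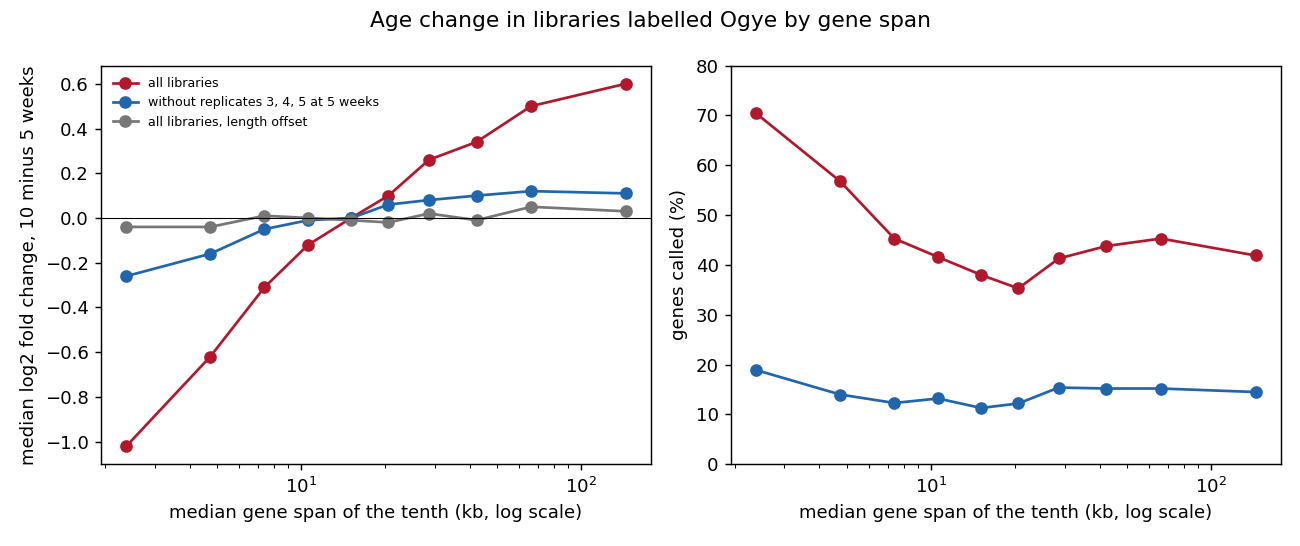
Left, the median log2 fold change (10 minus 5 weeks, libraries labelled Ogye) of the tested genes in each of 10 bins of gene span, against the median span of the bin in kb on a log axis, for the fit with all 20 libraries, the fit of 17 without replicates 3, 4 and 5 at 5 weeks, and the fit with a length offset. Right, the percentage of genes called in each bin in the fits with 20 and 17 libraries. With all libraries the medians climb from -1.02 in genes of 2.38 kb to 0.60 in genes of 144 kb, and without the 3 libraries from -0.26 to 0.11.

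The breed labels also have to be read with care. Of the 10697 genes, the 5 Ogye and 5 Cornish libraries did not overlap in 733 at 5 weeks (6.85%) and in 1313 at 10 weeks (12.3%). In 178 genes they did not overlap at either age, and in 176 of these the breed that was higher at 5 weeks was the lower at 10 weeks, while 2 kept the same breed higher. The level of URAH, which encodes hydroxyisourate hydrolase, was 4.82, 6.51, 13.8, 17.7 and 11.3 CPM in Ogye at 5 weeks and 0.916, 0.447, 0.517, 0.908 and 0.363 at 10 weeks. In Cornish it was 1.02, 0.81, 0.293, 0.749 and 0.328 at 5 weeks and 6.61, 10.5, 7.95, 7.25 and 8.9 at 10 weeks. High and low libraries thus changed places between the breeds with no overlap. ATP5E, a subunit of the mitochondrial ATP synthase whose gene neighbours EDN3 on chromosome 20, averaged 274 ± 111 (SD, n = 5) and 77.4 ± 23.5 CPM in Ogye at 5 and 10 weeks and 85.2 and 183 CPM in Cornish. EDN3, the endothelin gene tied to black pigmentation, was at 0 to 1.12 CPM in the Ogye libraries and could not serve as a check of the breed.

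In the fit of 17, the 10-week libraries labelled Cornish differed from the 2 remaining 5-week libraries labelled Ogye in 12 genes (0.11% of 10957), whereas the 10-week libraries labelled Ogye, equal in number, differed from the same 2 in 1531 (14.0%). With all 20 libraries the same contrasts gave 3594 (33.6%) and 4931 (46.1%), and 11 of the 12 (0.103% of those tested with 20 libraries) were called in both fits. The 10-week libraries labelled Ogye differed from the 5-week libraries labelled Cornish in 968 genes (9.05%) with 20 libraries and 2396 (21.9%) with 17. An exchange of breed labels at 1 of the ages and an age change that runs in opposite directions in the breeds cannot be told apart from these data. Every change below is stated for the libraries as labelled. For some of the genes, not for all, 2 crossed contrasts chosen after the data were seen are also given. They are 10-week Ogye against 5-week Cornish, and 10-week Cornish against 5-week Ogye, in that order. They share libraries with the Ogye contrast and are no independent evidence for it.

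With all 20 libraries 4931 of 10697 genes were called between the ages in Ogye, 2273 higher (21.2%) and 2658 lower (24.8%) at 10 weeks. Without the 3 libraries 1531 of 10957 were called, 684 higher (6.24%) and 847 lower (7.73%). Of the 4931, 3464 kept their sign without being called in the fit of 17 and 221 turned their sign. With the length offset 3959 of 10353 were called (38.2%). Called in both fits were 1243 genes, 11.6% of those tested, with 583 higher (5.45%) and 660 lower (6.17%) at 10 weeks. In 1038 of them (83.5%) the 5 libraries of 1 age did not overlap those of the other, against 2132 (19.9%) of all tested genes. The calls were made on these same libraries, so the higher share follows from the selection and is no separate support. With the summed level of W-linked genes as a covariate, 3409 genes were called with 20 libraries and 1425 in both fits. A change of at least 1 log2 unit in both fits was found for 436 (4.08%), of which 194 were higher (1.81%) and 242 lower (2.26%). The shares of all genes called in each fit are the background for the counts of gene lists below.

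The breed label does not enter where all 10 libraries at 10 weeks, Ogye and Cornish, lay beyond all 10 at 5 weeks. This held for 213 genes (1.99%), 114 higher (1.07%) and 99 lower (0.925%) at 10 weeks, and 131 of them were called in Ogye in both fits. Of these, 40 were also called in Cornish in both fits. The 6 with the highest and the 6 with the lowest change in Ogye among them, with a mean of at least 1 CPM, are described next, and they were picked after their values were seen. The higher 6 were SYNJ2BP, ACSS2, FGA, UNC13B, GHR and RABGAP1L, and the lower 6 were RASAL3, PALM2AKAP2, COA3, IGF2BP3, MAP3K6 and CDK5.

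RASAL3 encodes a Ras GTPase-activating protein of blood cells and lies on chromosome 30 at 263713 to 278259 in GRCg7b. It was at 24.6, 28, 18.4, 16.3 and 15.5 CPM in Ogye at 5 weeks and at 1.08, 0.783, 1.33, 0.706 and 0.726 at 10 weeks. All 5-week libraries were more than 10 CPM above the highest 10-week library. It fell by 4.44 ± 0.22 on the log2 scale (edgeR adjusted p = 1.8e-10) with 20 libraries and by 4.78 ± 0.19 (edgeR adjusted p = 1.3e-10) with 17. In Cornish it was at 25.1 to 31.5 CPM at 5 weeks and at 1.01 to 1.69 at 10 weeks, a change of -4.36 ± 0.21, and the crossed contrasts gave -4.87 and -4.26 with 17 libraries.

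SYNJ2BP, a mitochondrial outer membrane protein that binds synaptojanin, lies on chromosome 5 at 26962652 to 27052593. Its level was 1.03, 0.608, 2.16, 0.33 and 1.41 CPM at 5 weeks and 9.99, 9.06, 9.75, 7.97 and 8.71 at 10 weeks in Ogye. The older libraries were closely grouped and far above the younger, with a log2 fold change of 3.04 ± 0.35 (edgeR adjusted p = 2.8e-05) with 20 libraries and 3.47 ± 0.35 (edgeR adjusted p = 8.3e-05) with 17. Cornish libraries ran from 0.353 to 0.976 CPM at 5 weeks and from 7.03 to 10.4 at 10 weeks.

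IGF2BP3, an RNA-binding protein of fetal tissues that binds the mRNA of IGF2, was at 15.4, 14.2, 17.7, 6.08 and 17.3 CPM at 5 weeks and at 3.16, 4.14, 2.51, 3.63 and 2.54 at 10 weeks in Ogye. Replicate 4 was the lowest of the younger libraries and still above the highest of the older. The change was -2.15 ± 0.31 (edgeR adjusted p = 8.4e-05) with 20 libraries, -2.21 ± 0.32 with 17, and -1.65 ± 0.30 in Cornish. PALM2AKAP2, a locus that joins a paralemmin and a kinase-anchoring protein, averaged 2.71 ± 1.41 (SD, n = 5) and 0.348 ± 0.326 CPM in Ogye. COA3, an assembly factor of cytochrome c oxidase, fell by 2.53 ± 0.42 with 20 libraries and by 1.18 ± 0.38 with 17, and its 5-week level was 3.64 and 4.04 CPM in replicates 1 and 2 against 11.4 to 16.0 in the 3 length-trend libraries. The kinases MAP3K6 and CDK5 fell by 1.88 ± 0.28 and 1.54 ± 0.24 with 20 libraries, and by 1.2 ± 0.30 and 0.88 ± 0.23 with 17. UNC13B, a vesicle priming protein, and RABGAP1L, a Rab GTPase activator, rose by 2.08 ± 0.42 and 1.82 ± 0.30 with 20 libraries and by 1.12 ± 0.22 and 1.14 ± 0.22 with 17.

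**Figure D2:**
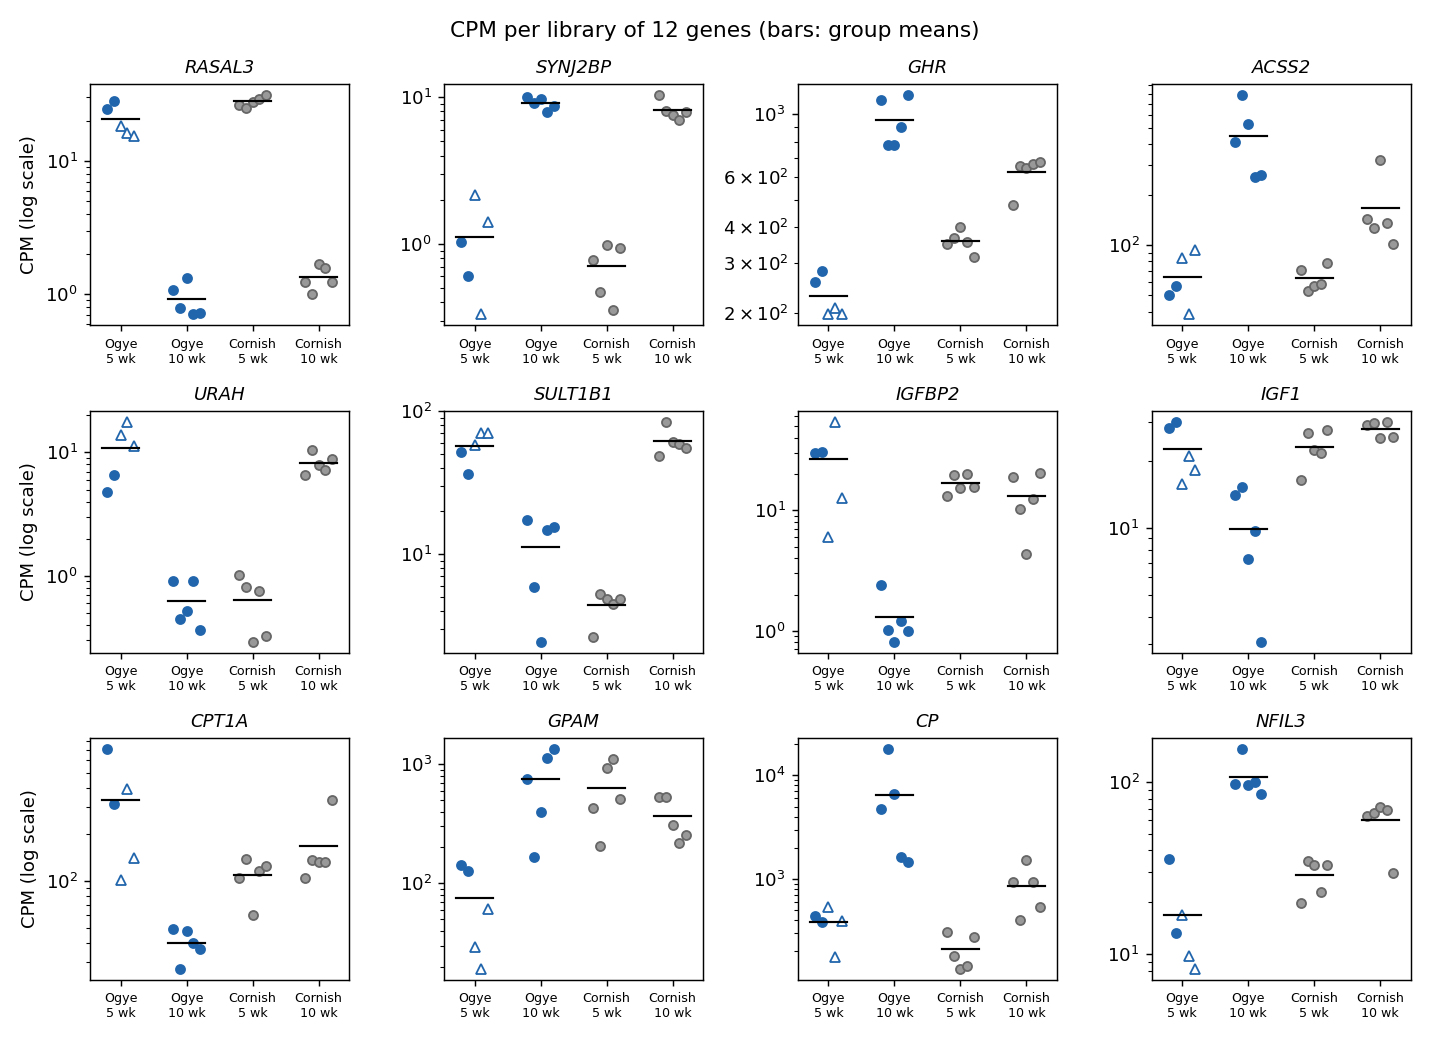
CPM on a log axis in each library of 12 genes by breed label and age, with bars at the group means. Open triangles are replicates 3, 4 and 5 of Ogye at 5 weeks. RASAL3, SYNJ2BP, GHR and ACSS2 separate the ages in both breeds, with GHR at 198 to 281 CPM in Ogye at 5 weeks and 776 to 1170 at 10 weeks, whereas URAH and SULT1B1 move in opposite directions in the breeds.

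In the growth hormone and insulin-like growth factor axis, the receptor GHR and the docking protein IRS1 rose and IGF1, SOCS2 and IGFBP2 fell in both fits. Growth hormone binds its receptor GHR on the hepatocyte, which induces IGF1 and the feedback inhibitor SOCS2, while IGFBP2 binds the secreted growth factors. Of 23 tested genes of this axis, 4 were higher and 5 lower with 20 libraries, 2 and 4 with 17, and 2 and 3 in both fits, where 5.45% of all genes were higher and 6.17% lower. The inhibitors SOCS1, SOCS3 and CISH were not called in either fit. The median change was -0.14 with 20 and -0.24 with 17 libraries, beside -0.00 over all genes in both.

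GHR, on chromosome Z at 13962241 to 14094496, was at 258, 281, 198, 208 and 198 CPM at 5 weeks and at 1120, 776, 776, 904 and 1170 at 10 weeks. The lowest 10-week library stood well above the highest 5-week library. It rose by 2.05 ± 0.16 (edgeR adjusted p = 4e-07) with 20 libraries and by 1.83 ± 0.21 (edgeR adjusted p = 0.00015) with 17. In Cornish the rise was 0.80 ± 0.16, from a mean of 358 to 625 CPM, and the Ogye change exceeded it by 1.25 ± 0.22 (edgeR adjusted p of the difference 0.0011). The crossed contrasts were 1.41 and 1.22 with 17 libraries.

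IGF1, on chromosome 1 at 55326358 to 55374742, went the other way. It was at 28, 29.8, 15.7, 21.1 and 18.2 CPM at 5 weeks and at 14.1, 15.3, 7.24, 9.68 and 3.09 at 10 weeks. The groups came close without overlapping, and the change was -1.2 ± 0.29 (edgeR adjusted p = 0.0031) with 20 libraries and -1.55 ± 0.34 (edgeR adjusted p = 0.0085) with 17. In Cornish IGF1 changed by 0.28 ± 0.28 and was not called (edgeR adjusted p = 0.58).

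SOCS2 fell from 20.2, 32.5, 21.1, 33.5 and 45.8 CPM to 5.58, 3.80, 4.73, 7.16 and 9.62, a change of -2.31 ± 0.32 with 20 libraries and -2.08 ± 0.38 with 17. IGFBP2 was at 29.9, 30.2, 5.97, 54.2 and 12.6 CPM at 5 weeks and at 2.42, 1.01, 0.813, 1.21 and 0.998 at 10 weeks. It varied widely among the younger libraries, and each of them still lay above all the older. Its change of -4.35 ± 0.54 (edgeR adjusted p = 4.1e-05) with 20 libraries and -4.52 ± 0.43 (edgeR adjusted p = 6e-05) with 17 was the second lowest after RASAL3 among the genes named by rank. IRS1, the docking protein of the insulin and growth factor receptors, rose by 1.57 ± 0.23 with 20 libraries and 1.59 ± 0.29 with 17. In Cornish IRS1 changed by -0.26 ± 0.22 with 20 libraries and was not called (edgeR adjusted p = 0.5). Its crossed contrasts with 17 libraries were 0.52 (edgeR adjusted p = 0.075) and 0.81 (edgeR adjusted p = 0.23). GHR and IRS1 are among the 176 genes whose higher breed switched between the ages. IGF2 (edgeR adjusted p = 0.18) and IGFBP1 (edgeR adjusted p = 0.75) were not called with 20 libraries or with 17, with changes of -0.51 ± 0.31 and -0.31 ± 0.73 with 20.

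In fatty acid oxidation and ketogenesis, every gene called in both fits was lower at 10 weeks. Of 26 tested, 1 was higher and 12 were lower with 20 libraries (all genes, 21.2% and 24.8%). In both fits 0 were higher and 4 lower (all genes, 5.45% and 6.17%). The median was -0.63 with 20 and -0.20 with 17 libraries. CPT1A and PPARGC1A were among the 4.

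CPT1A carries fatty acids into mitochondria as the controlled step of oxidation, and its gene lies on chromosome 5 at 16197964 to 16234089. It was at 711, 315, 102, 390 and 140 CPM at 5 weeks and at 49.3, 27.1, 47.3, 39.6 and 36.2 at 10 weeks. The younger libraries were widely spread, and the older narrowly grouped below them. It fell by 3.05 ± 0.45 (edgeR adjusted p = 9.5e-05) with 20 libraries and by 3.68 ± 0.39 (edgeR adjusted p = 0.00011) with 17, while in Cornish it changed by 0.62 ± 0.42 (edgeR adjusted p = 0.37).

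PPARGC1A, a coactivator of oxidation and glucose production in fasting, was at 66.5, 12.8, 3.11, 16.8 and 5.87 CPM at 5 weeks and at 4.25, 2.80, 1.55, 4.34 and 1.09 at 10 weeks. Replicate 3 at 5 weeks lay within the range of the older libraries. The changes were -2.92 ± 0.70 with 20 and -3.83 ± 0.65 with 17 libraries.

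Glucose production genes called in both fits were lower as well. PCK1, the phosphoenolpyruvate carboxykinase, was at 721, 49.4, 15.2, 251 and 62.2 CPM at 5 weeks and at 24.6, 0.112, 2.81, 55.4 and 25.1 at 10 weeks. The groups overlapped, and its change was -3.35 ± 0.99 (edgeR adjusted p = 0.01) with 20 libraries and -4.16 ± 1.03 (edgeR adjusted p = 0.015) with 17. G6PC1 and SLC37A4 are the catalytic subunit and the transporter of glucose-6-phosphatase. They fell by 2.07 and 1.0 with 20 libraries and by 1.66 and 0.59 with 17. SLC37A4 is among the 176 genes whose higher breed switched between the ages, and neither of its crossed contrasts was called with 17 libraries. UGP2 and PGM1, which supply UDP-glucose for glycogen, rose by 1.31 ± 0.39 and 0.79 ± 0.19 with 20 libraries and by 1.32 ± 0.40 and 0.97 ± 0.24 with 17. In all 37 genes of glucose and glycogen handling, 2 were higher and 4 lower in both fits (all genes, 5.45% and 6.17%). With 20 libraries 3 were higher and 15 lower (all genes, 21.2% and 24.8%).

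ACSS2, the cytosolic enzyme that makes acetyl-CoA from acetate, lies on chromosome 20 at 3002622 to 3034471. It was at 50.5, 56.6, 84.2, 38.5 and 93.2 CPM at 5 weeks and at 413, 791, 529, 254 and 263 at 10 weeks. Older libraries exceeded the younger without overlap, and the change was 2.80 ± 0.36 (edgeR adjusted p = 4.7e-05) with 20 libraries and 3.08 ± 0.51 (edgeR adjusted p = 0.0019) with 17. In Cornish it was 1.39 ± 0.34 (edgeR adjusted p = 0.02).

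Of 17 tested genes of fatty acid synthesis, ACSS2 was the member that rose in both fits, and ACACB the member that fell. ACACB, the carboxylase whose malonyl-CoA inhibits CPT1A, was low throughout, at 0.444 to 2.11 CPM at 5 weeks and 0.0739 to 0.224 at 10 weeks, and fell by 3.27 ± 0.75 and 3.46 ± 0.80. FASN, the fatty acid synthase, was at 5410, 3660, 2870, 2110 and 4450 CPM at 5 weeks and at 8950, 1640, 5990, 10500 and 17200 at 10 weeks. It was called with 20 libraries (1.26 ± 0.44, edgeR adjusted p = 0.026) and not with 17 (0.97 ± 0.62, edgeR adjusted p = 0.32). THRSP, a regulator of fat synthesis, was not called in either fit.

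Of the glycerolipid and lipid droplet genes 4 were higher and 3 lower of 17 tested with 20 libraries, and 3 and 2 of 18 with 17. In both fits 3 were higher and 0 lower (all genes, 5.45% and 6.17%). With the length offset 2 were higher and 4 lower. GPAM, which starts glycerolipid synthesis, was at 142, 127, 29.5, 19.2 and 61.1 CPM at 5 weeks and at 750, 165, 395, 1120 and 1340 at 10 weeks, with replicate 2 the lowest of the older libraries. It rose by 3.32 ± 0.62 with 20 libraries and 2.50 ± 0.77 with 17. The lipid droplet coat protein PLIN2 rose by 2.62 ± 0.50 and 2.48 ± 0.77, although its replicate 2 at 10 weeks, 70.3 CPM, lay within the range of the younger libraries. FITM2, which partitions fat into droplets, rose by 1.15 ± 0.21 and 1.02 ± 0.29. The crossed contrasts of GPAM with 17 libraries were 0.26 (edgeR adjusted p = 0.74) and 1.46 (edgeR adjusted p = 0.4). Those of PLIN2 were -0.12 (edgeR adjusted p = 0.89) and 1.61 (edgeR adjusted p = 0.35). None of the 20 cholesterol synthesis genes was called in both fits, and with 20 libraries 2 were higher and 1 lower.

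Among 21 apolipoprotein and lipoprotein handling genes 3 fell in both fits and 0 rose (all genes, 6.17% and 5.45%). They were LCAT, which esterifies plasma cholesterol (-1.34 ± 0.29 with 20, -1.23 ± 0.37 with 17 libraries), the hepatic lipase LIPC (-1.43 ± 0.53 and -1.90 ± 0.58) and the HDL receptor SCARB1 (-0.80 ± 0.18 and -0.77 ± 0.18). CYP7A1, which controls the rate at which bile acids are made, was at 24.9, 26.5, 42.2, 56.3 and 41.7 CPM at 5 weeks and at 142, 32.8, 128, 294 and 196 at 10 weeks. Of the older libraries, replicate 2 alone fell within the younger range. The change was called with 20 libraries (2.05 ± 0.58, edgeR adjusted p = 0.0082) and not with 17 (2.63 ± 0.91, edgeR adjusted p = 0.063). SLCO1B1, which takes up bile acids and other anions, fell by 1.10 ± 0.21 with 20 libraries and by 1.11 ± 0.25 with 17.

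Of 9 tested genes of yolk precursors and estrogen response, 4 were higher with 20 libraries, APOB, MTTP, ESR1 and TF, and TF alone was called in both fits. VTG2, a vitellogenin, was at 0 to 0.198 CPM at 5 weeks and at 0.148 to 6.26 at 10 weeks, and was not called in the fit of 17 (edgeR adjusted p = 0.11). It did not pass the filter with 20 libraries. APOV1 ran from 1.65 to 34.2 CPM at 5 weeks and from 0.0739 to 6.91 at 10 weeks and was not called (edgeR adjusted p = 0.069 with 20 libraries). The estrogen receptor ESR1 was at 14.6 and 15.3 CPM in replicates 1 and 2 at 5 weeks, at 2.10 to 3.35 in the 3 length-trend libraries, and at 7.94 to 22.6 at 10 weeks. It was called with 20 libraries (edgeR adjusted p = 0.035) and not with 17 (edgeR adjusted p = 0.63).

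Of 36 enzymes that break down amino acids, 9 were higher and 8 lower with 20 libraries (all genes, 21.2% and 24.8%). With the length offset 6 were higher and 6 lower (all genes, 18.7% and 19.5%), and in both fits 4 and 0 (all genes, 5.45% and 6.17%). The 4 were AASS of lysine breakdown (1.53 ± 0.32 with 20, 1.83 ± 0.47 with 17 libraries), OAT of ornithine (1.03 ± 0.33 and 1.72 ± 0.44), UROC1 of histidine (0.82 ± 0.25 and 1.08 ± 0.31) and DBT of the branched chains (0.55 ± 0.12 and 0.50 ± 0.15). With the length offset UROC1 was not called (0.16, edgeR adjusted p = 0.71). In the purine and uric acid pathway 3 of 22 fell in both fits and 0 rose (all genes, 6.17% and 5.45%). XDH, the enzyme that forms uric acid, was at 3290, 1630, 689, 1420 and 929 CPM at 5 weeks and at 860, 899, 471, 323 and 739 at 10 weeks. The groups overlapped through replicate 3 at 5 weeks, and the change was -1.27 ± 0.40 with 20 libraries and -1.90 ± 0.43 with 17. APRT, which salvages adenine, fell by 1.88 ± 0.31 and 1.06 ± 0.30, and URAH by 4.08 ± 0.41 and 3.14 ± 0.38.

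Of 27 tested genes of xenobiotic metabolism, 0 were higher and 16 lower with 20 libraries, where 24.8% of all genes were lower. With 17 libraries 1 was higher and 5 lower, and with the length offset 0 and 7. In both fits 0 were higher and 4 lower (all genes, 5.45% and 6.17%). Their median was -0.88 with 20 libraries and -0.66 with 17. In Cornish 6 were higher and 0 lower with 20 libraries (all genes, 435 higher, 4.07%, and 352 lower, 3.29%).

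SULT1B1, a sulfotransferase of thyroid hormones and phenols, was at 51.6, 36.5, 58.4, 69.9 and 70.2 CPM at 5 weeks and at 17.2, 5.93, 2.44, 14.8 and 15.5 at 10 weeks. The groups did not overlap, with a change of -2.36 ± 0.37 with 20 libraries and -1.97 ± 0.44 with 17. In Cornish it rose by 3.80 ± 0.39, from 2.62 to 5.25 CPM at 5 weeks to 48.2 to 84.3 at 10 weeks. The crossed contrasts with 17 libraries were 1.34 (edgeR adjusted p = 0.02) and 0.48 (edgeR adjusted p = 0.69), so 10-week Ogye was called above 5-week Cornish. CYP3A4 fell by 1.77 ± 0.30 and 1.90 ± 0.30, CYP1A1 by 2.13 ± 0.55 and 2.08 ± 0.68, and CYP2C18 by 3.47 ± 0.87 and 3.18 ± 0.99. These are cytochromes P450 that oxidize drugs and hormones, and reads of CYP2C18 could be shared with its close relatives.

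Antioxidant genes had 2 higher and 4 lower members in both fits, of 27 tested (all genes, 5.45% and 6.17%). The peroxiredoxin PRDX1 fell by 1.19 ± 0.18 and 0.87 ± 0.17, and GCLC, which starts glutathione synthesis, by 0.86 ± 0.22 and 1.01 ± 0.28. The 2 that rose were the copper and iron carriers CP and TF, which are also acute phase proteins of birds. CP, ceruloplasmin, on chromosome 9 at 23602423 to 23619882, was at 440, 388, 531, 178 and 395 CPM at 5 weeks and at 4700, 18000, 6590, 1640 and 1450 at 10 weeks. The older libraries exceeded the younger in each case, and replicate 2 was far above its group. Its change was 4.07 ± 0.61 (edgeR adjusted p = 0.00011) with 20 libraries and 3.97 ± 0.95 (edgeR adjusted p = 0.012) with 17, and in Cornish 2.04 ± 0.56 (edgeR adjusted p = 0.033). TF, transferrin, rose by 1.52 ± 0.31 and 2.03 ± 0.45.

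Of 46 acute phase, coagulation and complement genes, 21 were higher and 10 lower with 20 libraries (all genes, 21.2% and 24.8%). With 17 libraries 11 were higher and 2 lower (all genes, 6.24% and 7.73%), and in both fits 11 and 2 (all genes, 5.45% and 6.17%). Their median was 0.48 with 20 libraries, 0.55 with 17 and 0.48 with the length offset. FGA, the alpha chain of fibrinogen, was at 15300, 9900, 10800, 6070 and 8820 CPM at 5 weeks and at 38600, 90000, 57400, 25900 and 19400 at 10 weeks, with no overlap. It rose by 2.18 ± 0.35 with 20 libraries and 1.88 ± 0.50 with 17, and the chains FGB (1.79 ± 0.33 and 1.71 ± 0.49) and FGG (1.90 ± 0.34 and 1.89 ± 0.50) with it. All 3 genes are neighbours on chromosome 4. C8A of the complement attack complex rose by 1.10 ± 0.23 and 1.41 ± 0.32. EXFABP, a siderophore-binding lipocalin of inflammation, rose by 2.37 ± 0.63 and 3.95 ± 0.90. F11, coagulation factor XI, fell by 0.85 ± 0.18 and 1.21 ± 0.18. F11 is among the 176 genes whose higher breed switched between the ages. Its crossed contrasts with 17 libraries were 0.18 (edgeR adjusted p = 0.39) and -0.45 (edgeR adjusted p = 0.3). In Cornish 24 of the 46 were higher and 0 lower with 20 libraries (all genes, 4.07% and 3.29%).

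Markers of heterophils, the avian counterpart of neutrophils, rose with them. Of 14 listed genes in the table, 11 passed the filter on low counts with 20 libraries. All 11 were higher (all genes, 21.2%), and 8 of them in both fits (all genes, 5.45%). The median change was 2.70 with 20 libraries and 3.28 with 17. The 14 listed genes in the table summed to 86.4 to 278 CPM at 5 weeks and 519 to 1360 at 10 weeks, without overlap. Much of that sum was LYG2, at 65.1 to 200 CPM at 5 weeks and 448 to 1070 at 10 weeks. EXFABP is also on the acute phase list, and its levels at the 2 ages overlapped. Among the 14, 1 was at 0 in the Ogye libraries. S100A12, a calcium-binding protein of granulocytes, was at 3.10, 1.74, 7.75, 4.69 and 5.43 CPM at 5 weeks and at 63.3, 44.9, 29.1, 14.9 and 6.99 at 10 weeks. Replicate 5 of the older libraries lay within the younger range and the other 4 above it. LYG2, a goose-type lysozyme, averaged 133 ± 64.5 and 716 ± 267 CPM (SD, n = 5) and rose by 2.43 ± 0.44 and 2.77 ± 0.63. The granulocyte growth factor receptor CSF3R rose by 1.34 ± 0.35 and 1.96 ± 0.46, and the beta-defensin AvBD7 by 3.62 ± 0.66 and 3.62 ± 0.97. In Cornish with 20 libraries 1 heterophil gene was higher and 1 lower (all genes, 4.07% and 3.29%). The higher was S100A12 (2.08 ± 0.56, edgeR adjusted p = 0.03). The lower was LYG2 (-2.22 ± 0.44, edgeR adjusted p = 0.0059), which makes up much of the Ogye sum. Whether more heterophils or more RNA of these genes per cell were present cannot be told apart in whole liver, which holds for every cell type marker here. Their part in the acute phase change was not tested.

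The 10-week libraries differed among themselves in the same genes. Replicate 2 at 10 weeks had the highest CP, FGA, FGB, FGG, TF, C8A and EXFABP of its group, and the lowest FASN, GPAM, PLIN2, THRSP, CYP7A1, ESR1 and PCK1. THRSP was at 43.5 CPM in that library and at 1150 to 4160 in the other 4, and albumin was at 48700 CPM there and 48600 to 210000 in the rest. These genes were singled out after their values were seen and no test was made. Without that library 1180 genes were called in both fits, and 1048 of them were among the 1243.

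Some chaperones and folding enzymes of the endoplasmic reticulum, which a secreting liver relies on, were called higher. Of 35 heat shock and folding genes, 8 were higher and 2 lower with 20 libraries (all genes, 21.2% and 24.8%). With 17 libraries 8 were higher and 0 lower (all genes, 6.24% and 7.73%), and in both fits 4 and 0 (all genes, 5.45% and 6.17%). DNAJB9, a co-chaperone of the folding stress response, was at 32.8, 25.7, 22.9, 16.4 and 25.1 CPM at 5 weeks and at 63.5, 111, 54.4, 53.9 and 60.9 at 10 weeks, with no overlap, and rose by 1.48 ± 0.22 with 20 libraries and 1.24 ± 0.29 with 17. SDF2L1 (1.09 ± 0.25 and 1.23 ± 0.34), PDIA6 (0.82 ± 0.22 and 1.09 ± 0.30) and CRELD2 (1.0 ± 0.30 and 1.31 ± 0.41) were the other 3.

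The circadian clock is a feedback loop in which CLOCK, NPAS2 and ARNTL drive the PER genes and the repressors NR1D1 and NR1D2. Of 18 tested genes, 4 rose and 2 fell in both fits (all genes, 5.45% and 6.17%). NPAS2 was at 2.17, 3.0, 1.84, 1.26 and 1.26 CPM at 5 weeks and at 12.7, 11.7, 14.1, 12.6 and 8.53 at 10 weeks. It rose by 2.63 ± 0.32 (edgeR adjusted p = 4e-05) with 20 libraries and 2.21 ± 0.42 (edgeR adjusted p = 0.0032) with 17, and its groups stood far apart. CLOCK rose by 1.12 ± 0.15 and 0.81 ± 0.15, ARNTL by 1.21 and 0.85, and the repressor NFIL3 by 2.66 ± 0.34 and 2.12 ± 0.41. NR1D2 fell by 0.94 ± 0.18 and 1.15 ± 0.22, and PER3 by 1.06 and 1.56. A difference in the hour of sampling between the ages cannot be told apart from age in these genes.

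The liver receptor NR5A2, which drives bile acid and lipid genes, rose by 1.40 ± 0.18 with 20 libraries and 1.15 ± 0.20 with 17. It went from 88.5, 83.7, 68.9, 42.7 and 75.0 CPM to 180, 246, 169, 174 and 181. CEBPD, an inducible factor of the C/EBP family, fell by 1.83 ± 0.32 and 1.13 ± 0.34, and TBX3, a factor of liver outgrowth, by 0.73 ± 0.19 and 0.77 ± 0.24. Of 28 liver transcription factors these 3 were called in both fits. Of 14 thyroid hormone genes 1 was called in both, KLF9, a target of the hormone, with -0.64 ± 0.25 and -1.08 ± 0.26. Cell cycle genes had 0 of 45 called in both fits. Carotenoid and retinoid genes shared SCARB1 with the lipoprotein list and had no other member called in both.

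Ribosomal proteins and the nuclear-encoded respiratory chain are made from short genes, and their change moved with the length trend. All 63 cytosolic ribosomal protein genes were lower at 10 weeks with 20 libraries (all genes, 24.8%), with a median of -1.22. Without the 3 libraries 29 were lower and 0 higher (all genes, 7.73% and 6.24%), with a median of -0.41. With the length offset 44 were lower and 1 higher (all genes, 2023 lower, 19.5%, and 1936 higher, 18.7%), with a median of -0.49. RPLP1, a stalk protein of the large subunit, was at 389, 467, 897, 1290 and 1110 CPM at 5 weeks and at 157, 176, 216, 202 and 270 at 10 weeks. The 3 length-trend libraries were higher than replicates 1 and 2, and all 5 were above the older group. RPLP1 fell by 2.02 ± 0.26 with 20 libraries and by 1.06 ± 0.18 with 17.

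Of 52 respiratory chain genes 49 were lower with 20 libraries (all genes, 24.8%) and 11 with 17 (all genes, 7.73%). The median went from -1.21 to -0.31. With the length offset 24 of 49 were lower and 1 higher (all genes, 19.5% and 18.7%), with a median of -0.37. NDUFAB1, the acyl carrier subunit of complex I, fell by 1.76 ± 0.26 and 0.87 ± 0.20, and NDUFS3, a core subunit, by 1.35 ± 0.21 and 0.67 ± 0.15. COX7C of complex IV and ATP5PF of the ATP synthase fell by 1.65 ± 0.27 and 1.40 ± 0.23 with 20 libraries and by 0.60 ± 0.15 and 0.49 ± 0.12 with 17. In Cornish 0 of the ribosomal and 0 of the respiratory chain genes were called with 20 libraries, with medians of -0.06 and 0.08. With 17 libraries 1 ribosomal gene was higher and 6 lower there, and 4 respiratory chain genes were higher and 2 lower (all genes, 10.5% and 9.77%).

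In the Ogye contrast the interferon response depended on the same 3 libraries. With 20 libraries 28 of 37 genes were lower at 10 weeks, with a median of -1.92, and with 17 libraries 1 was higher and 2 lower, with a median of -0.27. IFI6, an interferon-induced mitochondrial protein, was at 36.8, 49.1, 6720, 887 and 5890 CPM at 5 weeks and at 63.7, 5.25, 9.60, 29.4 and 20.8 at 10 weeks. Replicates 3, 4 and 5 held the high values and replicates 1 and 2 lay within the range of the older libraries. Its change was -6.72 ± 1.32 with 20 libraries and -0.73 ± 0.89 (edgeR adjusted p = 0.62) with 17. With the length offset 22 of 36 were lower and 1 higher, where 19.5% of all genes were lower. The part of the length trend in this difference was not tested. The 2 called in Ogye in both fits were IRF8 (-1.45 ± 0.33 and -1.40 ± 0.42), a factor of myeloid cells, and BLB1 (-3.01 ± 0.37 and -2.04 ± 0.36), an MHC class II chain of a multigene family whose reads could be shared. BLB1 is among the 176 genes whose higher breed switched between the ages. Its crossed contrasts with 17 libraries were -0.69 (edgeR adjusted p = 0.1) and -0.44 (edgeR adjusted p = 0.63). In Cornish 0 of the 37 interferon genes were higher and 1 lower with 20 libraries. With 17 libraries 1 was higher and 17 lower there (all genes, 10.5% and 9.77%). Between 10-week Ogye and 5-week Cornish 0 were higher and 16 lower with 17 libraries (all genes, 11.5% and 10.4%). Between 10-week Cornish and 5-week Ogye 0 were called (all genes, 0.11%).

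**Figure D3:**
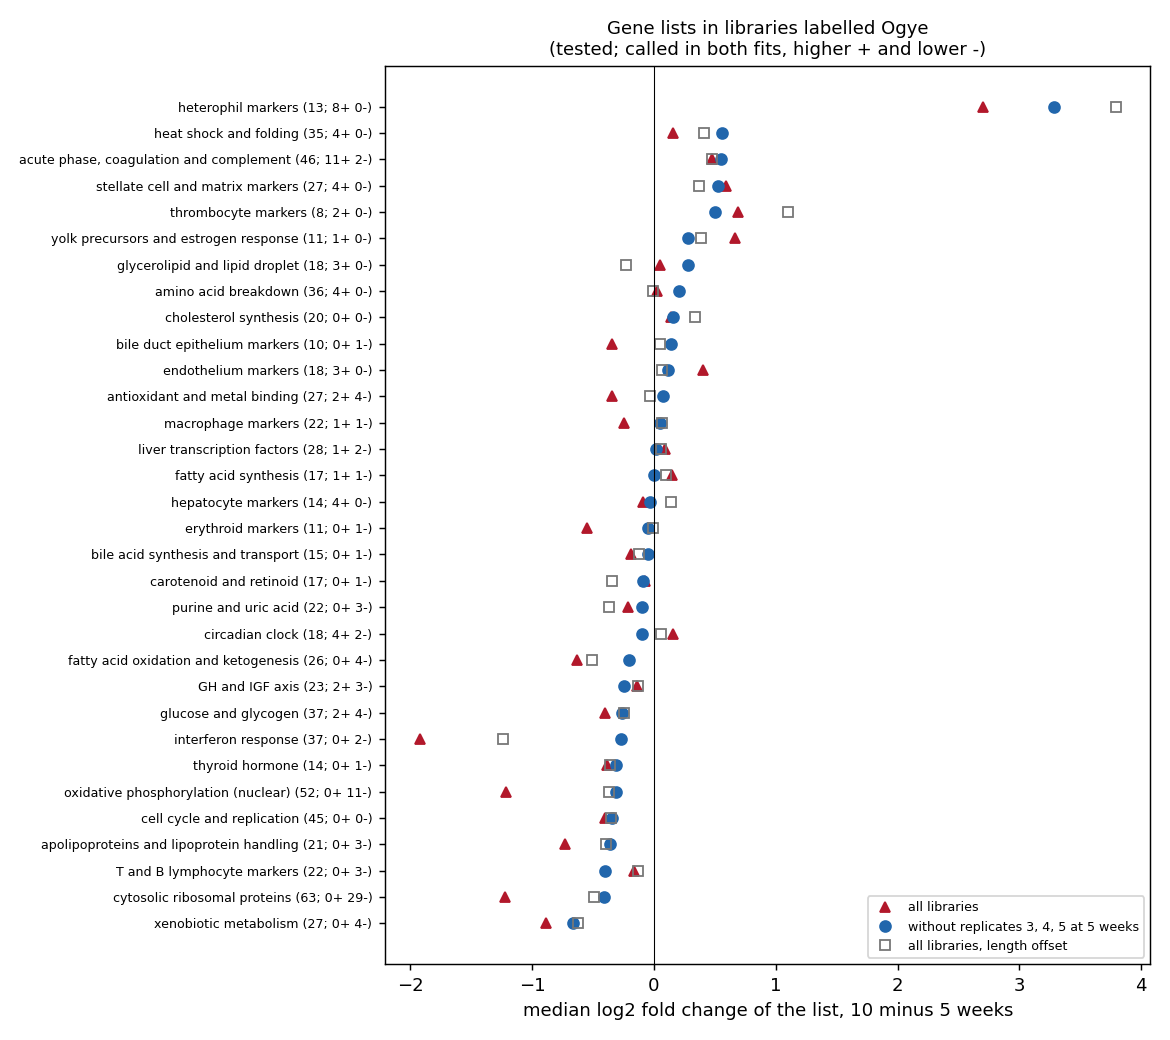
Median log2 fold change (10 minus 5 weeks, libraries labelled Ogye) of the tested members of 32 gene lists, in the fit with all 20 libraries (triangles), the fit of 17 (circles) and the fit with a length offset (squares). The number tested in the fit of 17 and the members called higher (+) and lower (-) in both fits stand beside each name. Heterophil markers lie at 2.70, 3.28 and 3.79, and interferon, ribosomal and respiratory chain genes move toward 0 when the 3 libraries are left out.

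The tissue was checked by its markers. The summed level of the 14 hepatocyte markers was 213000 to 266000 CPM at 5 weeks and 269000 to 385000 at 10 weeks, and albumin was at 106000 to 169000 and 48600 to 210000 CPM. Muscle markers summed to 11.4 to 21.0 CPM and pancreas and gut markers to 2.12 to 10.6 CPM over both ages, with 7 of the 19 pancreas and gut genes at 0. Macrophage markers summed to 3340 to 6760 CPM at 5 weeks and 2740 to 3510 at 10 weeks, with 3340 and 4150 in replicates 1 and 2 at 5 weeks, and 1 gene rose and 1 fell in both fits. Bile duct markers were at 147 and 169 CPM in replicates 1 and 2 at 5 weeks, 343 to 432 in the 3 length-trend libraries and 126 to 212 at 10 weeks. Erythroid markers summed to 205 to 444 and 181 to 349 CPM.

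Some matrix and vascular genes rose. Stellate cell and matrix markers summed to 1680, 1550, 1350, 1100 and 1240 CPM at 5 weeks and to 2440, 2440, 2620, 2520 and 1910 at 10 weeks, without overlap. Of 27 tested genes 14 were higher and 3 lower with 20 libraries (all genes, 21.2% and 24.8%), and 4 were higher in both fits (all genes, 5.45%). DCN, the matrix proteoglycan decorin, rose by 1.24 ± 0.21 with 20 libraries and 1.23 ± 0.29 with 17, from 143 ± 21.2 to 338 ± 39.8 CPM (SD, n = 5). PDGFRA, a growth factor receptor of mesenchymal cells, rose by 2.51 ± 0.42 and 2.34 ± 0.53, COL6A2 by 1.01 ± 0.20 and 0.96 ± 0.28, and the collagen cross-linking enzyme LOX by 1.84 ± 0.36 and 1.42 ± 0.46. Endothelial markers summed to 698 and 705 CPM in replicates 2 and 1 at 5 weeks, 423 to 584 in the 3 length-trend libraries and 681 to 922 at 10 weeks, so the groups overlapped. Of 18 endothelial genes 8 were higher and 1 lower with 20 libraries (all genes, 21.2% and 24.8%). With 17 libraries they were 3 and 1 (all genes, 6.24% and 7.73%), and in both fits 3 and 0 (all genes, 5.45% and 6.17%). With the length offset 3 were higher and 2 lower (all genes, 18.7% and 19.5%), no larger shares than among all genes. Their median was 0.40 with 20 libraries, 0.12 with 17 and 0.07 with the length offset. The clotting carrier VWF was at 56.1, 63.2, 26.0, 21.3 and 28.2 CPM at 5 weeks and at 143, 131, 139, 203 and 135 at 10 weeks, and rose by 1.94 ± 0.27 and 1.34 ± 0.25. FLT1, a receptor of vascular growth factors, rose by 1.52 ± 0.30 and 1.05 ± 0.31.

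Of 20 lymphocyte markers 2 were higher and 5 lower with 20 libraries (all genes, 21.2% and 24.8%), and 0 and 3 in both fits (all genes, 5.45% and 6.17%). LCK, the kinase of the T cell receptor, was at 7.97, 15.3, 14.4, 18.8 and 10.9 CPM at 5 weeks and at 4.25, 3.69, 5.39, 4.94 and 3.90 at 10 weeks, with no overlap. It fell by 1.60 ± 0.20 with 20 libraries and by 1.38 ± 0.22 with 17. CD8A, the coreceptor of cytotoxic T cells, fell by 1.17 ± 0.42 and 1.52 ± 0.49, with overlap. The summed level of the lymphocyte list was 216 to 523 CPM at 5 weeks and 213 to 481 at 10 weeks.

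The 12 highest and 12 lowest changes among genes called in both fits without overlap, after a minimum of 1 CPM in the higher group, held several genes outside these lists. Among the higher were the neurotrophin receptor NTRK2 (5.18 ± 0.86 with 20 libraries, 4.46 ± 1.25 with 17), the adhesion molecule NCAM1 (4.14 ± 0.78 and 3.66 ± 1.15) and the secretory cell factor BHLHA15 (4.17 ± 0.72 and 5.55 ± 1.2). NCAM1 was at 0.925 to 4.86 CPM at 5 weeks and at 41.8, 138, 24.3, 7.46 and 13 at 10 weeks. NTRK2 was at most 0.304 CPM at 5 weeks and at 1.25, 20.2, 8.20, 0.605 and 0.908 at 10 weeks. In both, replicate 2 was the highest of the older libraries. F13A1, the catalytic chain of factor XIII, rose by 3.67 ± 0.48 and 3.36 ± 0.71, and the ubiquitin ligase TRIM2 by 3.58 ± 0.43 and 3.16 ± 0.63. RFX6, SCUBE2, TGM3 and TRPM1 were in the higher set too, beside CP and AvBD7, with changes of 3.56 to 4.61 with 20 libraries and 2.84 to 4.59 with 17. RFX6, SCUBE2, BHLHA15 and NTRK2 had 4, 8, 11 and 15 counts summed over the 5-week Ogye libraries, so their fold changes depend on the prior count of the fit. BHLHA15 was at 0 and 0.0868 CPM in replicates 1 and 2 at 5 weeks, the 2 that the fit of 17 keeps.

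Among the lower were BG1, a B-G gene of the MHC region whose family members could share reads (-3.27 ± 0.44 and -2.89 ± 0.50), and the glycogen-targeting subunit PPP1R3G (-3.80 ± 0.67 and -2.70 ± 0.75). BG1 was at 135, 92.7, 243, 149 and 115 CPM at 5 weeks and at 9.66, 3.47, 16.0, 14.9 and 32 at 10 weeks. POLD4, a small subunit of DNA polymerase delta, was at 0.837 and 1.87 CPM in replicates 1 and 2 at 5 weeks and at 8.72 to 9.89 in the 3 length-trend libraries, so its change of -3.88 ± 0.61 with 20 libraries was -1.71 ± 0.49 with 17. MUSK, CDK3, PLPPR5 and MBD2 fell by 3.79, 3.28, 3.23 and 3.19 with 20 libraries and by 4.01, 3.59, 3.25 and 3.15 with 17. BG1, CDK3 and MBD2 are among the 176 genes whose higher breed switched between the ages. With 17 libraries the crossed contrasts of BG1 were -1.84 (edgeR adjusted p = 0.006) and -0.46 (edgeR adjusted p = 0.73). Those of CDK3 were -1.43 (edgeR adjusted p = 0.058) and -0.82 (edgeR adjusted p = 0.51). Those of MBD2 were -0.72 (edgeR adjusted p = 0.39) and -1.24 (edgeR adjusted p = 0.4). MUSK and PPP1R3G had 4 and 9 counts summed over the 10-week Ogye libraries, so their fold changes depend on the prior count too. RefSeq places MBD2 on chromosome W, and its reads could be shared with a related copy elsewhere.

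The age change differed between the breeds as labelled in many genes. The interaction, the Ogye change minus the Cornish change, was called in 2500 genes with 20 libraries (23.4%), in 1491 with 17 (13.6%), and in 1030 in both (9.63%). Of the 1243 genes called in Ogye in both fits, 553 (44.5%) were among the 1030. The interaction contains the Ogye libraries that gave these calls, so a share above 9.63% follows from the selection. In Cornish 787 genes were called in both fits (7.36%). Called in both breeds and both fits were 70 genes that moved in the same direction, 5.63% of the Ogye and 8.89% of the Cornish calls, and 66 that moved in opposite directions, 5.31% and 8.39%. The Ogye and Cornish contrasts share no library.

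**Figure D4:**
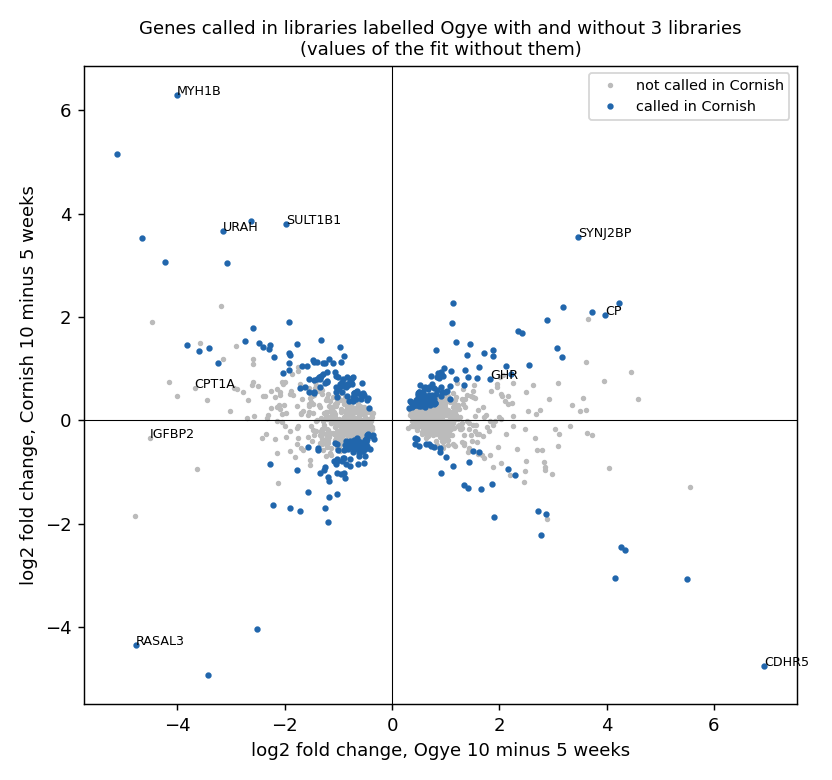
Log2 fold change between 10 and 5 weeks in Cornish (vertical) against that in Ogye (horizontal) in the fit of 17 libraries, for the 1243 genes called in Ogye in both fits. Points in blue, 326 of them, were also called in Cornish in this fit (all genes, 20.3%), 196 in the same and 130 in the opposite direction. RASAL3 lies far down on both axes, SYNJ2BP far up on both, and URAH and SULT1B1 are lower in Ogye and higher in Cornish.

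In the 6 highest and 6 lowest interactions called in both fits, the Ogye and Cornish fold changes had opposite signs in all 12. A rank by the Ogye change minus the Cornish change favours opposite signs, so this is no separate result. Not all 12 genes were called within each breed with 20 libraries. APOV1, MYBPC3 and CD200L were not called in Ogye, nor SCUBE2 and SLC22A2 in Cornish. GPR173, an orphan receptor, was at 0.174 to 1.52 CPM at 5 weeks and 3.66 to 6.86 at 10 weeks in Ogye, and at 1.28 to 5.25 and 0.0721 to 0.751 in Cornish. CDHR5, a cadherin of brush borders, averaged 0.388 ± 0.479 and 12.2 ± 11.9 CPM in Ogye (SD, n = 5) and 11.8 and 0.393 in Cornish, and TRIM7.1, a gene of the MHC region, 0.282 and 7.70 in Ogye and 22.1 and 0.0548 in Cornish. SCUBE2, CD200L and SLC22A2 had the same signs. In the other direction MYH1B, a fast muscle myosin, averaged 1.36 and 0.0962 CPM in Ogye and 0.0372 and 3.46 in Cornish. APOV1 averaged 10.4 and 2.78 CPM in Ogye and 0.178 and 107 in Cornish, and URAH, HS3ST3B1, NDNF and MYBPC3 lay on the same side. For GPR173 the crossed contrasts without the 3 libraries were 1.0 (edgeR adjusted p = 0.11) for 10-week Ogye against 5-week Cornish and 0.09 (edgeR adjusted p = 0.97) for 10-week Cornish against 5-week Ogye. For URAH they were -0.02 (edgeR adjusted p = 0.98) and 0.54 (edgeR adjusted p = 0.55). APOV1 was the member with a crossed contrast called in this fit, at 3.92 (edgeR adjusted p = 0.017) and 4.49 (edgeR adjusted p = 0.093). MYBPC3 had 3.24 (edgeR adjusted p = 0.14) and 2.1 (edgeR adjusted p = 0.56). The rest of the 12 lay from -1.51 (TRIM7.1) to 1.36 (MYH1B) in the first contrast. In the second they lay from -1.47 (NDNF) to 2.11 (CDHR5).

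The crossed contrasts in the fit of 17 gave the following counts. The contrast of 10-week Cornish with 5-week Ogye called few genes of any kind and rests on 2 libraries at 5 weeks, so its counts of 0 say little about a list. Heterophil markers were higher in 13 of 13 between 10-week Ogye and 5-week Cornish (all genes, 1257 higher, 11.5%), and in 0 between 10-week Cornish and 5-week Ogye (all genes, 6 higher, 0.0548%). Acute phase genes were higher in 30 of 46 and in 0. Folding genes were higher in 12 of 35 and in 0, and ribosomal protein genes lower in 19 of 63 and in 0 (all genes, 1139 lower, 10.4%, and 6 lower, 0.0548%). Fatty acid oxidation genes were lower in 2 of 26 and in 0. CPT1A changed by -1.44 (edgeR adjusted p = 0.0057) and -1.61 (edgeR adjusted p = 0.1), IGF1 by -1.22 (edgeR adjusted p = 0.0064) and -0.05 (edgeR adjusted p = 0.97), IGFBP2 by -3.68 (edgeR adjusted p = 4.8e-05) and -1.19 (edgeR adjusted p = 0.2), and CP by 4.95 (edgeR adjusted p = 0.00038) and 1.07 (edgeR adjusted p = 0.58). The 12 genes called between 10-week Cornish and 5-week Ogye were ERMP1, GHR, IDH3A, IGF2BP3, PALM2AKAP2, POSTN, RABGAP1L, RASAL3, RMC1, SYNJ2BP, U6 and UBE2D1.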

How the data were processed

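Read counts per gene of 20 liver libraries were deposited by the authors as raw counts. The submitters' processing notes name STAR, featureCounts, FastQC and MultiQC and the build GRCg7b. The tools' versions and strand setting were not given in the sources used here. Of 54062 entries, 13956 carry a gene symbol and were used. The 40097 assembled entries hold 30.355% to 37.019% of the counts, and 8 numbered entries and 1 without a name stayed out of library sizes and tests. RefSeq (GRCg7b) matched 12769 symbols directly and 618 by synonym.

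Genes were kept with filterByExpr, scaled by TMM and fitted with a mean for each of 4 groups by robust quasi-likelihood in edgeR 4.0.16 (R 4.3.3), with 2-sided tests and Benjamini-Hochberg adjustment over all tested genes, once with 20 and once with 17 libraries. The standard error is the fold change divided by the square root of F. The script was tested on simulated data. DESeq2 1.42.0, limma 3.58.1 (voom), other scalings, filters, sample sets, a replicate block in Ogye libraries, a length offset and leaving out each Ogye library were tried.

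The comparison, its members and the 35 gene lists were chosen with earlier results of these data known. Genes were named by rule: the 12 highest and lowest changes called in both fits without overlap and at least 1 CPM in the higher group, up to 4 members per list with the lowest adjusted p, 15 fixed genes, and 6 interactions each way. Genes that separate the ages in both breeds, EDN3, ATP5E and those said to have been singled out were added after their values were seen. A count of 0 allows up to 3 counts, for counting error only. A few genes that the rule names are not reported here.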

Additional observations from a re-analysis of the deposited data

Results flagged for a closer look

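Of 96 groups of 5 libraries screened with Dixon's test for 1 library far from the rest, on log2 CPM, 7 were set apart, and chance alone sets apart about 1 group in 20. At 5 weeks these were CP in replicate 4, at 178 CPM, and IGF2BP3 in replicate 4, at 6.08 CPM, both below the rest. At 10 weeks they were replicate 2 for THRSP, at 43.5 CPM, and for ESR1, at 7.94 CPM, both low, and for ACACB, at 0.224 CPM, high. ACACB had 6 counts summed over the 10-week Ogye libraries, so its flag rests on very few reads. IGFBP1 was high in replicate 4 at 10 weeks, at 77.0 CPM, and VTG2 in replicate 5, at 6.26 CPM.

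The difference between the breeds' age changes was called in both fits for many of the named genes, and the 6 highest and 6 lowest are given here. On the log2 scale, Ogye minus Cornish with 20 libraries, it was 13.2 in TRIM7.1, 9.86 in CDHR5, 6.72 in SCUBE2, 6.35 in CD200L, 6.06 in SLC22A2 and 6.01 in GPR173. It was -11.1 in APOV1, -9.89 in MYH1B, -9.39 in HS3ST3B1, -7.75 in URAH, -7.32 in NDNF and -7.28 in MYBPC3. These values of low genes depend on the prior count of the fit. An exchange of breed labels at 1 age and a difference between the breeds cannot be told apart.

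Outside the named genes, 1 of the 8 numbered entries, which the table pairs with no gene, averaged 443 CPM (of the total of named genes, without TMM) in Ogye at 5 weeks (343 to 517) and 10.4 at 10 weeks (5.98 to 15.9). In Cornish it ran from 527 to 685 CPM at 5 weeks and from 4.43 to 6.44 at 10 weeks, so it separated the ages under either breed label.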

How the results depend on the processing

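With 20 libraries 4931 genes were called in Ogye, and 1531 without the 3 length-trend libraries. The 10 Ogye libraries fitted alone gave 3073. The replicate block, fitted to these 10 libraries alone, gave 3034, and with the length offset 1984. All entries together gave 7690, and 10-week Ogye against 5-week Cornish 968. Leaving out each Ogye replicate gave 3949 to 5850. Without the 3 libraries, the replicate block was fitted to replicates 1 and 2 of Ogye at each age alone. These libraries leave little to estimate the spread from, so the counts of 0 below cannot show what a block does to the calls. The 1531 became 479 with Ogye libraries alone, 2778 with all entries, 0 with the replicate block (where 2325 of 10571 had an unadjusted p under 0.05), 315 to 1914 with a replicate left out (315 without replicate 1 and 360 without replicate 2 at 5 weeks, where the lone library is assumed to vary like the others), 2396 for 10-week Ogye against 5-week Cornish and 12 for 10-week Cornish against 5-week Ogye. The 1243 called in both fits became 357 with Ogye libraries alone, 2094 with all entries, 0 with the block, 258 without replicate 1 and 272 without replicate 2 at 5 weeks (258 to 1580 over all replicates left out) and 11 for 10-week Cornish against 5-week Ogye. The Cornish count of 787 became 1340 with DESeq2, 1411 with all entries, 2862 with limma-voom and 2219 without the 3 libraries. It was 690 to 1048 with an Ogye replicate left out, and no Cornish library was left out in turn. The interaction count of 2500 became 936 with W-linked expression as a covariate, 4032 with all entries, 5772 with limma-voom and 1491 without the 3 libraries. With an Ogye replicate left out it was 1932 to 3599. The cause of these shifts was not tested. The length offset called 880 of the 1243 (70.8%) in both fits, and DESeq2 called all 1243. The labels do not say whether equal replicate numbers pair the libraries. Deviations of same-numbered libraries from their group means correlated at 0.161, 0.004, 0.136, 0.09 and 0.084, and 2 of 5 correlated best with their own number. These values cannot decide on pairing, since the deviations at 5 weeks include the length trend. The larger direction turned in some of these counts. The interaction had 1082 genes higher and 1418 lower with 20 libraries, and 3010 and 2762 with limma-voom. The Ogye count of 2273 higher and 2658 lower became 549 and 419 for 10-week Ogye against 5-week Cornish. With 17 libraries 684 and 847 became 1257 and 1139 there. The median change of 4 lists turned its sign from 20 to 17 libraries: antioxidant genes (-0.34 to 0.08), clock genes (0.16 to -0.10), bile duct markers (-0.34 to 0.14) and macrophage markers (-0.24 to 0.05). Of 115 named genes called with 20 libraries, 0 turned their sign under the alternatives and 91 were called under each of up to 22 alternatives. The 24 that lost the call in 1 or more include FASN, ESR1, LYZ, KLF9, LIPC, CD8A, OAT, UROC1, CRELD2, PDIA6, PCK1, XDH, CYP7A1 and IFI6. These alternatives vary the fit with 20 libraries, and the fit of 17 enters only in its main form. Genes named by rank or from the lists had been chosen as called in both fits, so their calls were partly fixed in advance. Of 1540 recomputed list counts, 329 moved by over 1.5 times. With 15281000 to 30150519 counts per library, genes under about 1 CPM rest on few reads, and 2 libraries at 5 weeks limit the fit of 17.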
